A study of Arabidopsis thaliana with 18 samples.

Results

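Over-expression of IAA19mII was compared with an empty vector in Arabidopsis root protoplasts that received no added auxin. The comparison uses 6 of the 18 ATH1 arrays of the series, chosen by sample title: 3 mock arrays of cells with the IAA19mII over-expressor (plasmid pBeaconRFP_IAA19mII) and 3 mock arrays of cells with the empty vector (plasmid pMON999_mRFP). All cells came from 7-day-old roots of Col-0 seedlings that carried the Pwer::GFP reporter, a green fluorescent protein under the promoter of the root epidermis gene WEREWOLF. After 3 h of wall digestion, the root protoplasts were transformed with polyethylene glycol, left overnight and given solvent alone (mock) for 3 h. Cells both green and red were then sorted, and their RNA was amplified before hybridisation. IAA7mII cells with solvent, and IAA19mII and empty vector cells given 5 µM indole-3-acetic acid (IAA, the main natural auxin), are used where a result is set against other arrays. The plasmids of the IAA19mII and empty vector groups differ in backbone as well as in insert, so insert and backbone cannot be told apart in this contrast. The promoter that drives IAA19mII, the reporter level per cell and whether replicates came from separate transformations are not given in the sources used here, and the spread between arrays may therefore be technical.

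IAA19 is one of the Aux/IAA proteins, short-lived nuclear repressors that bind auxin response factors and keep auxin-induced genes low. Auxin joins an Aux/IAA protein through its domain II to a TIR1/AFB receptor, which marks the repressor for degradation and frees the response factors. A changed domain II makes such a repressor stable; the labels leave mII unexplained, and it is taken here for such a change. Genes quickly raised by auxin include other Aux/IAA genes, GH3 genes, whose enzymes join auxin to amino acids, and LBD genes of lateral root initiation.

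Signals are MAS5 intensities on a linear scale, and changes are differences of log2(signal + 16), given as IAA19mII minus empty vector with the standard error after ±. A probeset is called at an adjusted p under 0.05 in limma, fitted to all 18 arrays with 1 mean per group. Adjusted p-values below come from that fit, with Benjamini-Hochberg adjustment over all 16892 probesets tested. Arrays within the IAA19mII group correlated at 0.948 to 0.956, arrays within the empty vector group at 0.968 to 0.973, and arrays of different groups at 0.907 to 0.920. The median standard deviation of a probeset was 0.345 in IAA19mII cells and 0.262 in empty vector cells. The arrays had nearly equal trimmed means, from 246.9 to 247.6, but the 75th percentile of the signal was 226.0 to 238.4 on IAA19mII arrays and 264.0 to 269.8 on empty vector arrays. With 3 arrays a group, the number of arrays limits the precision.

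IAA19 has no probeset in the probe table used here, so the over-expressed gene could not be checked by name. Whether any of the 7007 tested probesets without a gene in that table measures IAA19 was not determined. Markers of the hairless epidermis, where the WEREWOLF promoter is active, had no probeset there either, and the sorted cell type could not be checked against them.

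In the absence of added auxin, 2445 of 16892 probesets (14.5%) were called between IAA19mII and empty vector cells, of which 1122 (6.64%) were higher and 1323 (7.83%) lower in IAA19mII cells. A further measure without a test gave 6202 probesets (36.7%) whose 3 IAA19mII arrays did not overlap the 3 empty vector arrays. The split by direction depends on how the arrays are scaled. After centring each array on its median, 1683 probesets were higher and 560 lower, and after quantile normalization 1173 were higher and 999 lower. The median log2 change over all tested probesets was -0.14 as deposited, 0.10 after centring and -0.07 after quantile normalization. The count fell to 1552 without empty vector replicate 1 and to 1563 without empty vector replicate 3, and it was 3965 with array weights.

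Rises were larger than falls at the top end. Of the higher probesets, 819 changed at least 2-fold, 229 at least 4-fold and 52 at least 8-fold. Of the lower ones, 915 changed at least 2-fold, 50 at least 4-fold and 0 at least 8-fold. The sizes depend on the added constant: with an added 1, 112 higher and 49 lower probesets changed at least 8-fold, and with an added 64, 19 higher and 0 lower. Only part of the calls can be named, since 510 of the higher and 699 of the lower probesets match a single gene.

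**Figure D1:**
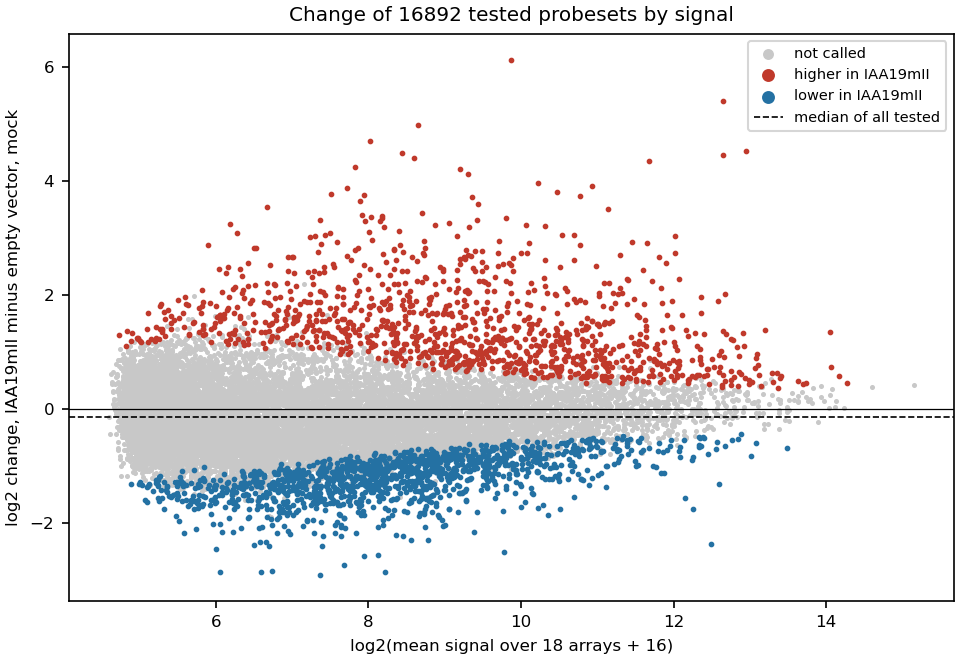
Log2 change between IAA19mII and empty vector mock arrays (vertical axis) against log2 of the mean signal over 18 arrays plus 16 (horizontal axis), 1 point per tested probeset; called probesets are red (1122 higher) and blue (1323 lower), and the dashed line is the median of all tested, -0.14. The largest rise, 6.14, is further from 0 than the largest fall, -2.91; the signal on the horizontal axis includes the IAA19mII arrays themselves.

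The largest rise of a single gene was that of cwINV6 (AT5G11920), a member of the cell wall invertase family that the reference annotation describes as a 6-&1-fructan exohydrolase. Its signal was 2700.3, 3466 and 2073 in IAA19mII cells, against 10.7, 36.9 and 24.1 in empty vector cells, a 70.4-fold difference on the log2(signal + 16) scale (log2 change 6.14 ± 0.35, adjusted p = 1.66e-12). Against empty vector signals this low the fold depends on the setting, and it ran from 31.6 to 120.0 over the alternatives. All 3 empty vector signals lay under the median of their arrays, and all 3 IAA19mII signals lay above the 75th percentile of theirs. Next in size were AT2G16890, AT1G70820, AT5G64110, AT5G59490 and AT4G18425, loci without a gene symbol in the annotation. AT2G16890 had 686, 801 and 1264 in IAA19mII cells, against 1.4, 12.1 and 30.9 in empty vector cells (log2 change 4.99 ± 0.36, adjusted p = 1.43e-10). AT5G64110 had 1981, 1962 and 1618 in IAA19mII cells, against 64.4, 89 and 126 in empty vector cells (log2 change 4.13 ± 0.35, adjusted p = 2.39e-09). AT5G59490, the brightest of these loci, had 3979.6, 4373 and 3688 in IAA19mII cells, against 279, 269.5 and 211 in empty vector cells (log2 change 3.91 ± 0.21, adjusted p = 4.78e-13). No IAA19mII array overlapped an empty vector array for any of the 12 genes with the largest rises, as the rule that named them required. AT1G70820, AT4G18425, AT5G37840, AT3G13950 and AT3G23190 rose by 3.38 to 4.26 on the log2 scale. The 12 also include AT1G59740, the NRT1/PTR family transporter NPF4.3, with 236, 230.1 and 307 in IAA19mII cells, against 7.8, 14.4 and 1.1 in empty vector cells (log2 change 3.55 ± 0.41, adjusted p = 4.77e-07), and scpl28, a serine carboxypeptidase-like gene, with 532, 317 and 349 in IAA19mII cells, against 15.4, 22.3 and 30.2 in empty vector cells (log2 change 3.41 ± 0.34, adjusted p = 6.20e-08). GSO1, the receptor-like kinase GASSHO1, had 446, 607 and 691 in IAA19mII cells, against 36.8, 57.6 and 38 in empty vector cells (log2 change 3.31 ± 0.38, adjusted p = 4.74e-07). Over all probesets, the largest rise after that of cwINV6 belongs to one without a gene in the probe table, 258399_at, singled out after its values were seen. It had 35135, 26034 and 33915 in IAA19mII cells, against 629, 677 and 881 in empty vector cells (log2 change 5.41 ± 0.28, adjusted p = 3.47e-13), and 83.9, 83.8 and 67.2 in IAA7mII cells with solvent. On the 3 IAA19mII arrays with IAA it is listed at 0. Which gene this probeset measures, the over-expressed one included, was not determined, so it is not read as a responding gene.

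**Figure D2:**
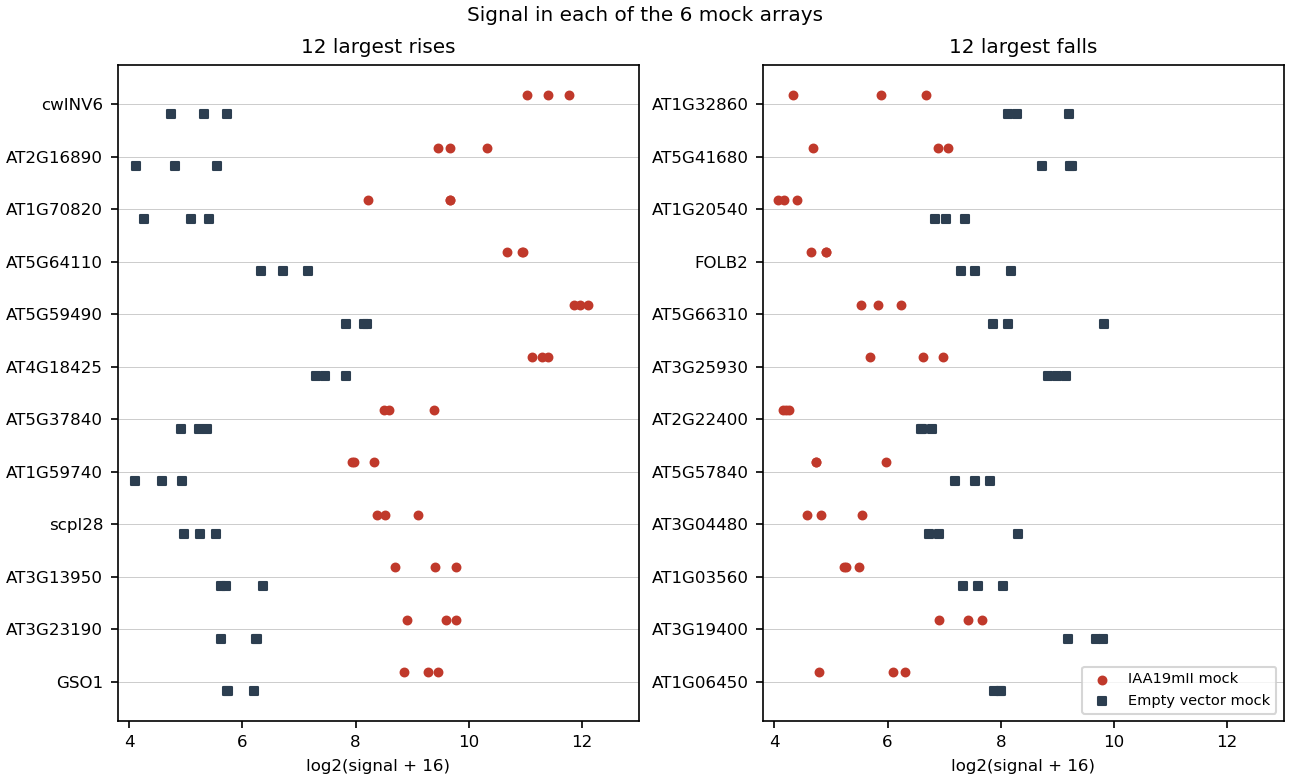
Log2(signal + 16) on each of the 6 mock arrays for the 12 single-gene probesets with the largest rises (left) and the 12 with the largest falls (right); red circles are IAA19mII arrays and dark squares empty vector arrays, 3 each. The groups are apart for every gene shown, which the choice of these genes required, and cwINV6 at the top left differs most.

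MSRB9, a methionine sulfoxide reductase, which repairs oxidised methionine, had 438, 697 and 878 in IAA19mII cells, against 50.4, 91.6 and 45.2 in empty vector cells (log2 change 3.12 ± 0.46, adjusted p = 2.37e-05). PRX52, a secreted peroxidase, had 357, 718 and 613 in IAA19mII cells, against 63.8, 59.4 and 74.4 in empty vector cells (log2 change 2.77 ± 0.46, adjusted p = 0.00013). ROXY1, a glutaredoxin, had 1127, 1009.8 and 799.7 in IAA19mII cells, against 147, 256 and 180.4 in empty vector cells (log2 change 2.26 ± 0.36, adjusted p = 5.51e-05). For these 3 genes the lowest IAA19mII array was more than 3 times the highest empty vector array. MSRB9 and ROXY1 were picked after values had been seen, by a rule that required no overlap between groups. PAP20, a purple acid phosphatase, was steady within each group, with 1205, 917 and 1151 in IAA19mII cells, against 181, 171 and 172 in empty vector cells (log2 change 2.53 ± 0.24, adjusted p = 1.97e-08). XTH18, whose enzyme cuts and rejoins xyloglucan of the wall, rose less, with 1865, 2454 and 1625 in IAA19mII cells, against 609, 1251 and 488 in empty vector cells (log2 change 1.42 ± 0.33, adjusted p = 0.0041). It was the called member of 4 tested xyloglucan genes, and of 12 tested expansins, which loosen the wall, limma called 0, with 1 at an unadjusted p under 0.05 and 0 to 1 called over the other settings. Among all single genes 12.8% were called, so 0 of 12 is not read as a result about expansins.

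The lists below count 1 probeset per gene, and over all 9391 single genes tested 12.8% were called, 5.4% higher and 7.39% lower, with a median log2 change of -0.14. The share called depended on signal. Over all tested probesets it was 1.11% higher and 1.67% lower at signals under 50, and 4.49% and 8.45% at 50 to 200. It was 9.84% and 14.2% at 200 to 1000, and 20.4% and 9.9% over 1000. The lists were not compared with genes of like signal, so the shares over all genes are no matched background for them. Of 14 tested beta-glucosidases, enzymes that release glucose from stored glycosides, 5 were higher and 1 lower, with a median of 0.72. This list was chosen after values had been seen. BGLU46, the brightest riser, had 8339, 8028 and 8689 in IAA19mII cells, against 1979, 2971 and 1843 in empty vector cells (log2 change 1.91 ± 0.15, adjusted p = 1.02e-09). BGLU28 had 2333, 2617 and 2739 in IAA19mII cells, against 241, 395 and 681 in empty vector cells (log2 change 2.62 ± 0.34, adjusted p = 3.58e-06), and its empty vector arrays differed among themselves by nearly 3 times. BGLU41 rose by 2.23 ± 0.35, BGLU15 by 1.16 ± 0.26 and BGLU16 by 0.73 ± 0.25, while BGLU25 fell, with 611, 563 and 815 in IAA19mII cells, against 1196, 1612 and 1721 in empty vector cells (log2 change -1.17 ± 0.25, adjusted p = 0.00159). BGLU16 was not called under 9 of the 17 alternatives.

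Of 14 tested cytochrome P450 genes, which mostly oxidise small molecules, 3 were higher and 0 lower, with a median of 0.54. CYP71B5 had 388, 359 and 512 in IAA19mII cells, against 73.3, 46.2 and 92.6 in empty vector cells (log2 change 2.35 ± 0.32, adjusted p = 6.71e-06). CYP71B29 was barely above 0 in empty vector cells, with 62.8, 61.5 and 78.8 in IAA19mII cells, against 2.5, 3.4 and 2.4 in empty vector cells (log2 change 2.15 ± 0.36, adjusted p = 0.000111). UGT glycosyltransferases, which attach sugars to hormones and other metabolites, went both ways: of 41 tested, 2 were higher and 3 lower, a share near that of all genes, with a median of 0.08. The higher count was 1 without empty vector replicate 1 or 3 or IAA19mII replicate 1 or 3. UGT71B5 had 1811, 1439 and 2766 in IAA19mII cells, against 251, 303 and 397 in empty vector cells (log2 change 2.57 ± 0.29, adjusted p = 3.18e-07). UGT73C7 went the other way, with 69.3, 55 and 117 in IAA19mII cells, against 197, 380.4 and 525 in empty vector cells (log2 change -1.94 ± 0.37, adjusted p = 0.000552). Of 11 glutathione transferases, which conjugate toxic or oxidised compounds, 2 were higher and 1 lower. The higher count was 1 without empty vector replicate 2 or 3 or IAA19mII replicate 1 or 2, where GSTU16 was not called. GSTU27 had 1944, 2335 and 2514 in IAA19mII cells, against 1018, 713 and 852 in empty vector cells (log2 change 1.39 ± 0.23, adjusted p = 0.000141), and GSTU22 had 234.5, 120.2 and 365 in IAA19mII cells, against 749, 615 and 533 in empty vector cells (log2 change -1.45 ± 0.29, adjusted p = 0.00109). Both tested glucosinolate transporters, GTR1 and GTR2, were higher, a list also chosen after values had been seen. GTR1 had 3185, 2903 and 2474 in IAA19mII cells, against 1369, 950.4 and 679 in empty vector cells (log2 change 1.55 ± 0.21, adjusted p = 7.25e-06), and GTR2, with 249, 135 and 299.9 in IAA19mII cells, against 91.4, 61.3 and 98.2 in empty vector cells (adjusted p = 0.0175), lost its call without empty vector replicate 2 or IAA19mII replicate 1 or 3.

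Defence and calcium genes were represented by few named members, of which several rose. OSM34, an osmotin-like protein made under salt and pathogen stress, had 8919.7, 7724 and 9644 in IAA19mII cells, against 2573, 2593 and 2891 in empty vector cells (log2 change 1.70 ± 0.16, adjusted p = 2.58e-08). GRX480, a glutaredoxin that binds TGA factors and is raised by salicylate, had 4877, 3374 and 5338 in IAA19mII cells, against 1342, 2613 and 1351 in empty vector cells (log2 change 1.395 ± 0.24, adjusted p = 0.00021). PDF1.4, of the plant defensin family, was lower, with 302, 762 and 526 in IAA19mII cells, against 1937, 1669 and 1431 in empty vector cells (log2 change -1.72 ± 0.36, adjusted p = 0.0016). These were the 3 called of 4 tested genes in the salicylate and defence list. Both tested chitinases, which cut fungal wall chitin, were higher, in a list chosen after values had been seen. CHI (AT2G43570) had 2410.2, 2226 and 1513 in IAA19mII cells, against 476, 433 and 403 in empty vector cells (log2 change 2.16 ± 0.21, adjusted p = 2.73e-08), and ChiC had 242, 225 and 188 in IAA19mII cells, against 29.1, 43.5 and 30.2 in empty vector cells (log2 change 2.23 ± 0.42, adjusted p = 0.000548).

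Of 7 tested calcium signalling genes 2 were called, the calmodulin-like calcium sensors CML43 and CML23, both higher. CML43 had 242, 157 and 162 in IAA19mII cells, against 15.1, 19.3 and 21.2 in empty vector cells (log2 change 2.54 ± 0.38, adjusted p = 2.95e-05). CML23 had 1627, 1713 and 842 in IAA19mII cells, against 399.6, 405 and 253 in empty vector cells (log2 change 1.90 ± 0.26, adjusted p = 7.16e-06). Of 6 tested WRKY transcription factors, many of which act in defence, 3 were higher and 0 lower. WRKY6 had 4486, 3622 and 5329.9 in IAA19mII cells, against 2286, 2637 and 2443 in empty vector cells (log2 change 0.85 ± 0.17, adjusted p = 0.0012), the brightest and the least spread of the 3. WRKY47 rose by 1.29 ± 0.33 and WRKY22 by 1.27 ± 0.33, both from lower signals. The higher WRKY count was 2 without empty vector replicate 1 or 3 or IAA19mII replicate 2. In the same contrast with IAA, 2 of the 6 were higher and 3 lower. The metallothionein MT1C, a small metal-binding protein, was the brightest of the named genes that rose, with 23407, 17458 and 23616 in IAA19mII cells, against 6855, 9264 and 8910.2 in empty vector cells (log2 change 1.36 ± 0.16, adjusted p = 1.04e-06). MT1C also comes from a list chosen after values had been seen.

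Among sugar transport genes, 2 of 9 tested were higher. SFP1, a sugar-porter family member, had 3703, 3129 and 3549 in IAA19mII cells, against 1632, 1397 and 1486 in empty vector cells (log2 change 1.19 ± 0.16, adjusted p = 4.35e-06), and the groups were far apart relative to their spread. SWEET2, a vacuolar sugar transporter, had 4839.7, 4059 and 4867 in IAA19mII cells, against 2430.0, 3251 and 2209.6 in empty vector cells (log2 change 0.81 ± 0.18, adjusted p = 0.00267). Outside that list, TMT2, which loads monosaccharides into the vacuole, was lower, with 76.4, 55.5 and 74.9 in IAA19mII cells, against 446, 281 and 307 in empty vector cells (log2 change -2.07 ± 0.33, adjusted p = 5.37e-05). Of 10 tested autophagy genes, ATG8E, a protein of the autophagosome membrane, was the called one, with 4184, 3990.4 and 3926 in IAA19mII cells, against 2408, 2332 and 2246 in empty vector cells (log2 change 0.79 ± 0.14, adjusted p = 0.000206). The list had 3 higher members after median centring.

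The largest falls of single genes were those of AT1G32860, AT5G41680 and AT1G20540, loci without a symbol. AT1G32860 had 4.2, 43.3 and 86.7 in IAA19mII cells, against 264, 298 and 575 in empty vector cells (log2 change -2.91 ± 0.58, adjusted p = 0.000912). AT5G41680 had 102, 9.6 and 118 in IAA19mII cells, against 583, 406 and 598 in empty vector cells (log2 change -2.86 ± 0.50, adjusted p = 0.000203). AT1G20540 had 2.1, 0.8 and 5.2 in IAA19mII cells, against 149.7, 98.2 and 114 in empty vector cells (log2 change -2.86 ± 0.48, adjusted p = 0.000144), under the 25th percentile of each IAA19mII array. FOLB2, a dihydroneopterin aldolase of folate synthesis, was the named enzyme with the largest fall, with 9.1, 14 and 14.2 in IAA19mII cells, against 274, 170.5 and 141 in empty vector cells (log2 change -2.85 ± 0.54, adjusted p = 0.000555). TRZ4, a transfer RNA processing enzyme, had 3.1, 4.2 and 8.6 in IAA19mII cells, against 88.8, 77.6 and 72.1 in empty vector cells (log2 change -2.17 ± 0.42, adjusted p = 0.000747). TRZ4 is not among the 12 largest falls and was picked after values had been seen. The 12 largest falls also include AT5G66310 (-2.74 ± 0.60), AT3G25930 (-2.56 ± 0.43), AT2G22400 (-2.46 ± 0.49), AT5G57840 (-2.37 ± 0.39), AT3G04480 (-2.33 ± 0.46), AT1G03560 (-2.33 ± 0.52), AT3G19400 (-2.22 ± 0.31) and AT1G06450 (-2.22 ± 0.34), each without overlap between groups, as the rule required. AT3G25930 and AT3G19400 were the brightest of these in empty vector cells: AT3G25930 had 35.9, 110.0 and 82.8 in IAA19mII cells, against 556, 438 and 493 in empty vector cells, and AT3G19400 had 189, 104 and 156 in IAA19mII cells, against 809, 564 and 880.2 in empty vector cells. Where IAA19mII signals are this low, the fitted change depends on the added 16: for AT1G20540 it was -5.20 with an added 1 and -1.46 with an added 64.

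Further genes with a symbol were lower, part of them picked after their values were seen. COB, the wall-anchored COBRA protein that orients cellulose and cell expansion, had 57, 43.4 and 69.1 in IAA19mII cells, against 319.7, 309 and 292 in empty vector cells (log2 change -2.17 ± 0.39, adjusted p = 0.000312). PHV, the HD-ZIP III factor PHAVOLUTA, had 24, 20.3 and 41.2 in IAA19mII cells, against 114, 115 and 115 in empty vector cells (log2 change -1.58 ± 0.37, adjusted p = 0.00371), and its 3 empty vector arrays were nearly equal. SPT, the bHLH factor SPATULA, had 1.1, 7 and 33.4 in IAA19mII cells, against 51.3, 60.5 and 86.4 in empty vector cells (log2 change -1.59 ± 0.45, adjusted p = 0.0182), a call lost without empty vector replicate 3, IAA19mII replicate 1 or IAA19mII replicate 2. RALFL22, of a family of secreted growth-inhibiting peptides, had 101, 42.2 and 169.5 in IAA19mII cells, against 315, 314 and 365 in empty vector cells (log2 change -1.68 ± 0.47, adjusted p = 0.0159), a call lost without empty vector replicate 3 or IAA19mII replicate 2. GLY2, a glyoxalase that clears methylglyoxal, had 233.6, 201 and 282 in IAA19mII cells, against 872, 713 and 818 in empty vector cells (log2 change -1.69 ± 0.39, adjusted p = 0.00348). NdhS, a subunit of the plastid NADH dehydrogenase-like complex, had 41.3, 156 and 98 in IAA19mII cells, against 477, 329.8 and 329 in empty vector cells (log2 change -1.91 ± 0.43, adjusted p = 0.00282).

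Other families had single or opposed members among the calls. Of 10 tested bZIP transcription factors 2 were higher and 0 lower, with a median of -0.16. BZIP24 had 195, 231 and 142 in IAA19mII cells, against 47.1, 97.5 and 61.5 in empty vector cells (log2 change 1.298 ± 0.40, adjusted p = 0.0288), and bZIP19 rose by 0.57 ± 0.20 at the edge of the threshold (adjusted p = 0.05). The bZIP count was 0 without empty vector replicate 3, IAA19mII replicate 1 or IAA19mII replicate 2, and 1 without empty vector replicate 1 or 2. Of 16 tested serine carboxypeptidase-like genes 2 were higher, scpl28 above and scpl29 (log2 change 1.00 ± 0.24, adjusted p = 0.00511). CYP71B23 made up the 3 higher P450 genes (log2 change 0.68 ± 0.22, adjusted p = 0.0324), GSTU16 was the other higher glutathione transferase (log2 change 1.02 ± 0.32, adjusted p = 0.0295), and UGT73B5 rose by 1.04 ± 0.31. CYP71B23 was not called under 6 of the 17 alternatives, of which 5 left out 1 array. UGT73B1 was lower, with 93.1, 99.5 and 279 in IAA19mII cells, against 589, 410.2 and 274 in empty vector cells (log2 change -1.44 ± 0.35, adjusted p = 0.00612), and 1 IAA19mII array overlapped the empty vector arrays. Of 7 tested histone genes the linker histone HIS1-3 was the called one (log2 change -1.09 ± 0.37, adjusted p = 0.0446), and it was not called under 10 of the 17 alternatives, median centring and quantile normalization among them; 5 of the 10 left out empty vector replicate 1 or 3 or IAA19mII replicate 1, 2 or 3. Of 2 tested genes in the heat shock and chaperone list AT5G48570 was called (log2 change -1.56 ± 0.43, adjusted p = 0.015), but not without empty vector replicate 2 or 3 or IAA19mII replicate 1. In lists chosen after values had been seen, 2 of 4 tested glutamate receptor-like channels were higher, ATGLR1.2 (log2 change 1.42 ± 0.33, adjusted p = 0.00427) and GLR2.9 (log2 change 1.57 ± 0.49, adjusted p = 0.0317). GLR2.9 was not called with an added 1, nor without empty vector replicate 1 or 2 or IAA19mII replicate 1 or 3, which left 1 higher channel. Of 4 tested subtilases, secreted serine proteases, SBT3.5 was higher (log2 change 0.91 ± 0.23, adjusted p = 0.00778), and ARA12 (log2 change -1.38 ± 0.33, adjusted p = 0.00506) and S1P (log2 change -1.08 ± 0.33, adjusted p = 0.0286) were lower. Neither was called without empty vector replicate 1, and S1P was lost under 6 of the 17 alternatives, which include median centring, quantile normalization and leaving out empty vector replicate 3 or IAA19mII replicate 1 or 3.

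Several hormone and housekeeping lists had no called member. They are short, and 12.8% of all single genes were called, so these counts are not read as results about the lists. Of 9 tested nuclear photosynthesis genes limma called 0, with 1 at an unadjusted p under 0.05, and 0 to 1 lower over the other settings. Of 3 tested gibberellin and brassinosteroid genes it called 0, with 0 at that level, among them the gibberellin receptor genes GID1B (0.17 ± 0.30) and GID1A (-0.50 ± 0.41). Of 2 tested cytokinin genes it called 0, with 1 at an unadjusted p under 0.05, and the response regulators RR16 and RR22 had changes of 1.06 ± 0.40 and -0.01 ± 0.43. RR16 was called higher with an added 1, after median centring, with no intensity trend and with array weights. EIN3, a transcription factor of ethylene signalling, had 0.06 ± 0.15, and YUC2, an auxin synthesis gene, -0.25 ± 0.38, neither called.

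Nuclear genes of energy metabolism were lower more often than higher, in lists chosen after values had been seen. Of 5 tested glycolysis and fermentation genes, 4 were lower and 1 higher, with a median of -1.02. F2KP, whose product sets the fructose-2,6-bisphosphate signal, had 879, 814 and 792 in IAA19mII cells, against 1633, 1821 and 1647 in empty vector cells (log2 change -1.02 ± 0.18, adjusted p = 0.000295). TPI, triose-phosphate isomerase, had 1831, 2134 and 2084 in IAA19mII cells, against 3505, 3494 and 3645 in empty vector cells (log2 change -0.81 ± 0.22, adjusted p = 0.0137). PDC2, a pyruvate decarboxylase of fermentation, overlapped between groups, with 180.5, 96.7 and 332 in IAA19mII cells, against 661, 328 and 664 in empty vector cells (log2 change -1.45 ± 0.40, adjusted p = 0.0136). GAPC2, glyceraldehyde-3-phosphate dehydrogenase, had a change of -1.08 ± 0.34. PGM, phosphoglycerate mutase, was higher, with 1491, 1588 and 1396 in IAA19mII cells, against 691, 561 and 630.0 in empty vector cells (log2 change 1.23 ± 0.19, adjusted p = 4.07e-05). After median centring 2 of these genes were lower and 1 higher. The lower count was 1 without empty vector replicate 3, 2 without empty vector replicate 1 and 2 without IAA19mII replicate 1 or replicate 2.

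Of 14 tested genes of the tricarboxylic acid cycle and mitochondrial respiration, 5 were lower and 1 higher, with a median of -0.53, -0.29 after median centring. ETFALPHA, which passes electrons to the respiratory chain, had 115, 64.7 and 230.0 in IAA19mII cells, against 369, 310.0 and 395 in empty vector cells (log2 change -1.44 ± 0.37, adjusted p = 0.00814). ICDH, an isocitrate dehydrogenase, had 150.5, 207 and 225 in IAA19mII cells, against 636, 424 and 498 in empty vector cells (log2 change -1.35 ± 0.33, adjusted p = 0.00617). IDH-VI, also of the isocitrate dehydrogenases, had 276, 308 and 259.5 in IAA19mII cells, against 624, 723 and 773 in empty vector cells (log2 change -1.28 ± 0.28, adjusted p = 0.00248). Members of this list were matched by name, and where their products act in the cell was not checked. SDH2-2, a subunit of succinate dehydrogenase, had a change of -0.84 ± 0.22, and MPPBETA, a mitochondrial processing peptidase, one of -0.56 ± 0.15. NDB2, an alternative NADH dehydrogenase, was the higher one (log2 change 0.83 ± 0.22, adjusted p = 0.012), a call lost without empty vector replicate 1 or 3 or IAA19mII replicate 1. The lower count was 3 without empty vector replicate 1 or replicate 2 and 3 after median centring. Of 11 tested genes encoded in the mitochondrion itself, limma called 0, with 2 at an unadjusted p under 0.05, and their changes ran from 0.05 to 0.79 with a median of 0.27. Over the other settings 0 to 2 were called.

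Of 17 tested genes of messenger RNA splicing and export, again a list chosen after values had been seen, 6 were lower and 0 higher, with a median of -0.70. THO1, a subunit of the THO export complex, had 136, 88 and 62.2 in IAA19mII cells, against 268, 256 and 228 in empty vector cells (log2 change -1.31 ± 0.30, adjusted p = 0.00336). Y14, of the exon junction complex, had 191, 237 and 252 in IAA19mII cells, against 519.8, 385 and 454 in empty vector cells (log2 change -0.95 ± 0.24, adjusted p = 0.00847). MAC3B, of the splicing-linked MOS4 complex, had 961, 803 and 851 in IAA19mII cells, against 1705, 1500.3 and 1575 in empty vector cells (log2 change -0.86 ± 0.21, adjusted p = 0.00477). LSM3A, PRP39-2 and U2AF35B made up the rest of the 6, with changes of -1.16 ± 0.34, -1.15 ± 0.39 and -0.74 ± 0.25. The lower count was 1 after median centring, with a median of -0.46, and 3 after quantile normalization, with a median of -0.59. It was also 3 without empty vector replicate 1, empty vector replicate 2 or IAA19mII replicate 1.

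**Figure D3:**
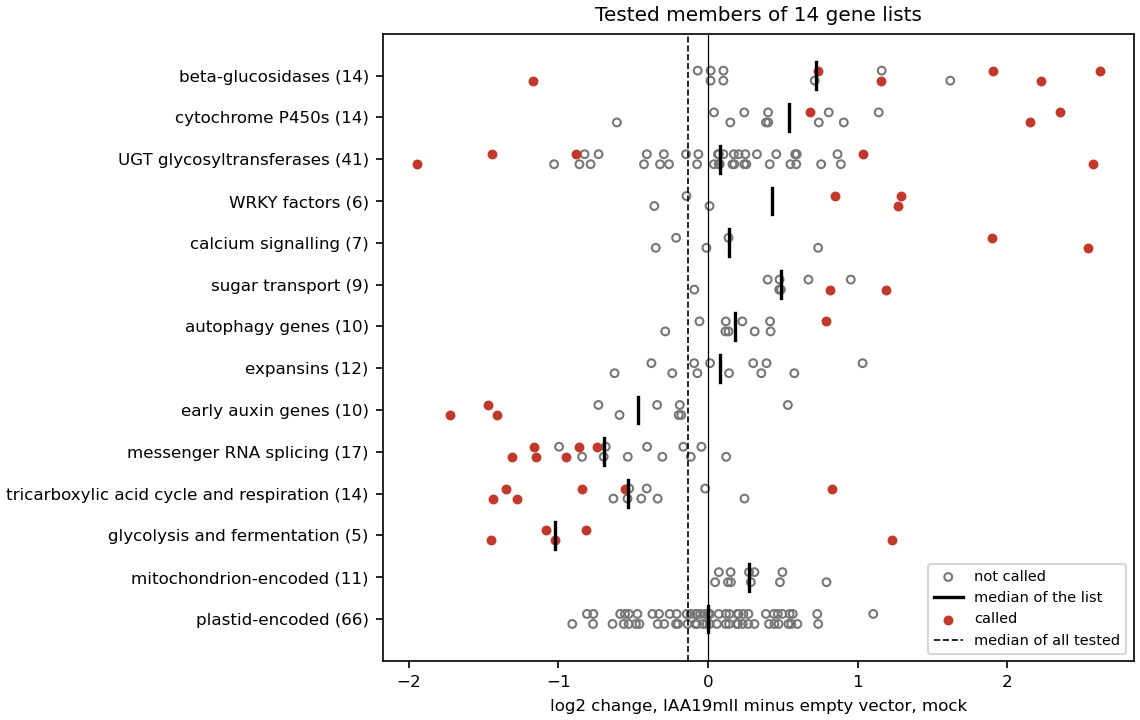
Log2 change between IAA19mII and empty vector mock arrays (horizontal axis) of every tested member of 14 gene lists, with the number tested in brackets; filled red points were called, open points were not, short black bars are list medians and the dashed line is the median of all tested probesets, -0.14. Plastid-encoded genes centre on 0, and glycolysis, respiration and splicing genes lie mostly to the left of it. The glycolysis, respiration, splicing and beta-glucosidase lists were chosen after values had been seen.

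Of 10 tested early auxin genes, 3 were lower and 0 higher, with a median of -0.47, against 7.39% lower and a median of -0.14 over all single genes. This list was chosen with earlier results of these data known, so its share is a description and no independent test. CLE44, the gene of a peptide that acts in vascular tissue, had 12.9, 1 and 52.9 in IAA19mII cells, against 122, 48.9 and 120.5 in empty vector cells (log2 change -1.72 ± 0.47, adjusted p = 0.0122), and 1 IAA19mII array overlapped the empty vector arrays. GH3.3 had 4.4, 1.5 and 13.3 in IAA19mII cells, against 34.2, 38.4 and 66 in empty vector cells (log2 change -1.47 ± 0.44, adjusted p = 0.0231). IAA30, itself an Aux/IAA gene, had 10.9, 11.8 and 58.2 in IAA19mII cells, against 75, 113 and 72.9 in empty vector cells (log2 change -1.41 ± 0.35, adjusted p = 0.007). These signals are low, and the count of lower genes was 1 without empty vector replicate 3, IAA19mII replicate 1 or IAA19mII replicate 2, and 2 without empty vector replicate 1. With an added 64 the change of GH3.3 was -0.64 and not called, and after median centring 2 of the 10 genes were lower.

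The other 7 early auxin genes were not called; those given here were chosen after their values were seen. WES1, a GH3 gene with high signal in both groups, had 2473, 2964 and 2764 in IAA19mII cells and 3456, 3048 and 2855 in empty vector cells (log2 change -0.19, and 0.052 after median centring). LBD16 had 121, 120.1 and 263 in IAA19mII cells and 114, 99.7 and 98.8 in empty vector cells, with a single IAA19mII array above the rest. IAA29 was near the floor of the range in both groups, with 17.8, 1.5 and 9.3 in IAA19mII cells and 8.1, 1.5 and 56 in empty vector cells. The remaining 4 had changes between -0.73 and -0.18. Of 4 tested Aux/IAA genes IAA30 was the called one. GH3.17, whose enzyme joins IAA to glutamate and is not part of the early auxin list, went the opposite way to GH3.3, with 6688, 7885 and 6095 in IAA19mII cells, against 3058, 2122 and 1574 in empty vector cells (log2 change 1.65 ± 0.21, adjusted p = 2.04e-06). All 3 of its IAA19mII arrays lay above the highest empty vector array.

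**Figure D4:**
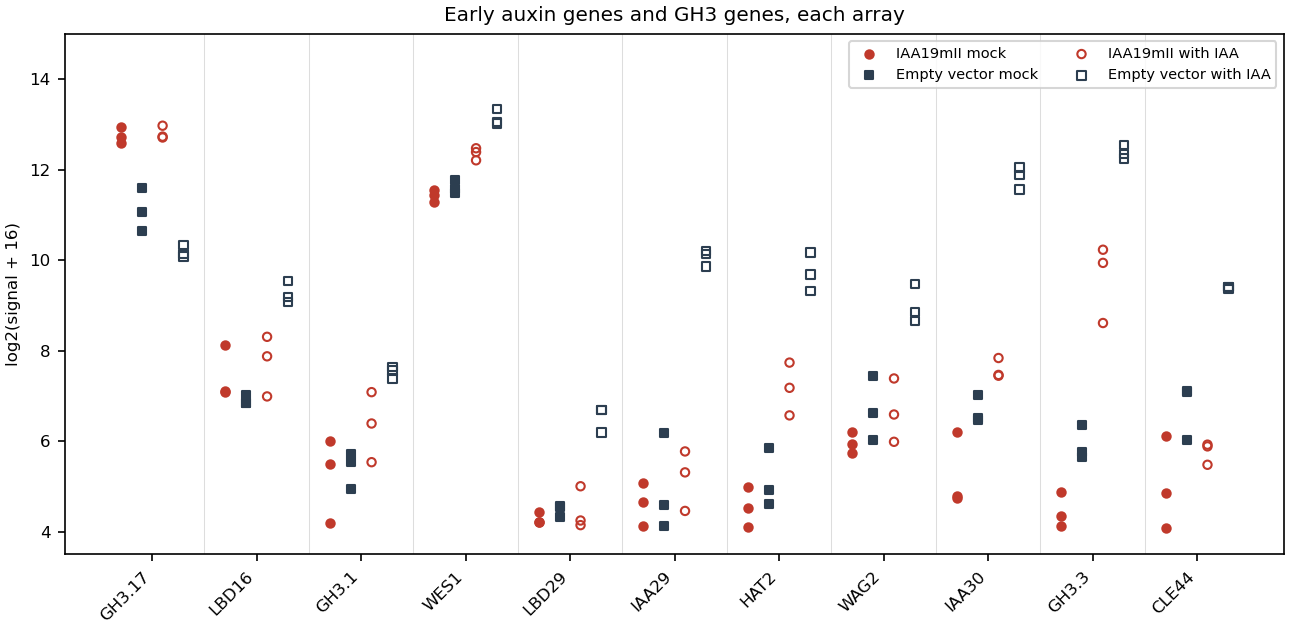
Log2(signal + 16) on each array for the 10 tested early auxin genes and GH3.17; for every gene the columns are IAA19mII mock (filled circles), empty vector mock (filled squares), IAA19mII with IAA (open circles) and empty vector with IAA (open squares), 3 arrays each. Among the mock arrays GH3.17 stands higher in IAA19mII cells and IAA30, GH3.3 and CLE44 lower, and with IAA the empty vector arrays of the early genes stand above the IAA19mII arrays.

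The same contrast was measured in 6 other arrays, IAA19mII and empty vector cells given 5 µM IAA for 3 h, which share no array with the mock contrast. There 3975 probesets (23.5%) were called, 1564 higher (9.26%) and 2411 lower (14.3%). That split was 2347 higher and 1132 lower after median centring and 1656 higher and 1865 lower after quantile normalization. Of the probesets higher in mock, 98.9% had the same sign with IAA, and of those lower in mock 98.6%, against 76.7% of all tested. In all, 933 probesets were higher in both, 83.2% of the mock list and 59.7% of the list with IAA, and 910 were lower in both, 68.8% of the mock list and 37.7% of the list with IAA. The insert and backbone are the same in both contrasts. cwINV6 had a log2 change of 6.25 ± 0.35 with IAA (adjusted p = 5.53e-13), with mean signals of 2287 ± 419 in IAA19mII cells and 15.5 ± 11 in empty vector cells (SD, n = 3 each). GH3.17 had 2.62 ± 0.21 (adjusted p = 3.63e-10), PAP20 4.03 ± 0.24 and COB -2.11 ± 0.39, each in its mock direction and called. Of the 12 largest falls, AT1G06450 and AT1G20540 were not called with IAA (adjusted p = 0.0961 and 0.163).

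**Figure D5:**
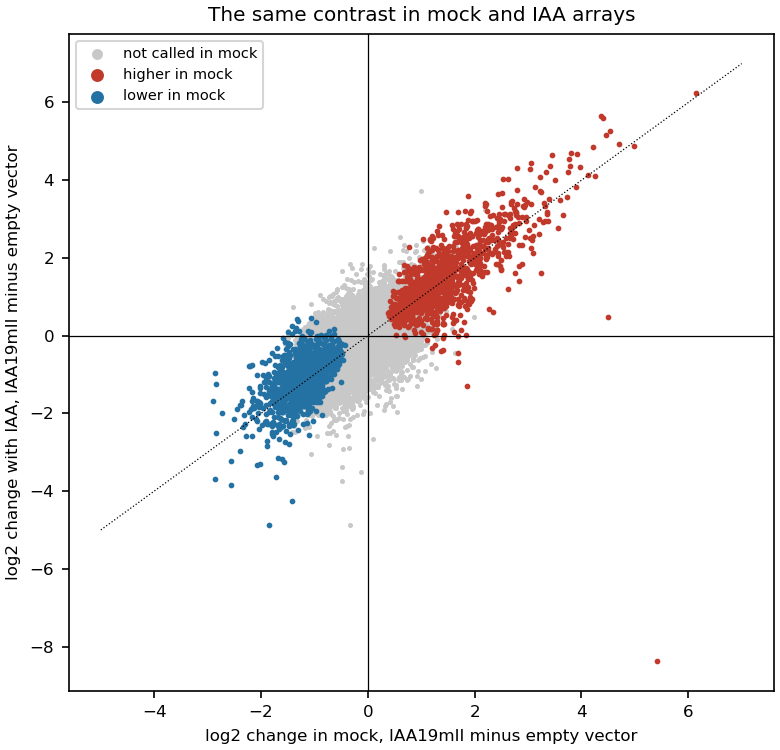
Log2 change between IAA19mII and empty vector cells with IAA (vertical axis) against the same change in mock (horizontal axis), 1 point per tested probeset; red and blue points were called higher or lower in mock, and the dotted line marks equal changes. Nearly all coloured points share the sign of their mock change; 1 red point lies far below the rest, the probeset 258399_at, listed at 0 on the IAA19mII arrays with IAA.

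With IAA, 9 of the 10 early auxin genes were lower in IAA19mII cells, where 13.8% of single genes were, and in mock 3 were. As said above, that list was chosen with earlier results of these data known. IAA30 had 158, 213 and 160.5 in IAA19mII cells, against 4203, 3772 and 2997 in empty vector cells, and GH3.3 had 965, 375 and 1184 in IAA19mII cells, against 5928, 5184 and 4842 in empty vector cells. The test of the difference itself, the change with IAA minus the change in mock, called 15 probesets (0.0888%), 8 higher (0.0474%) and 7 lower (0.0414%), and 2 of the 10 early auxin genes. These were IAA29 (-4.54 ± 0.68, adjusted p = 0.0022) and IAA30 (-2.84 ± 0.50, adjusted p = 0.0135), while GH3.3 and CLE44 were not called (adjusted p = 0.988 and 0.683). SFP1 (1.38 ± 0.22, adjusted p = 0.00591) and OSM34 (1.16 ± 0.23, adjusted p = 0.0408) differed in the other direction, with a larger gap between IAA19mII and empty vector cells with IAA than in mock. The empty vector mean of SFP1 was 1505 in mock and 602 with IAA, and its IAA19mII mean 3461 and 3660. The empty vector mean of OSM34 was 2686 in mock and 1333 with IAA, and its IAA19mII mean 8763 and 9666. With no intensity trend 0 probesets had a higher difference, so SFP1 and OSM34 were not called, nor was IAA30. OSM34 lost this call under 5 of 10 other settings and in 10 of 12 cases of leaving out 1 array, and IAA29 and IAA30 lost it with an added 1. IAA30 was also lost without empty vector replicate 3 in mock or empty vector replicate 1 or 2 with IAA. The count of 15 was 4 without empty vector replicate 2 with IAA, 7 without empty vector replicate 2 or 3 in mock, 8 without empty vector replicate 1 with IAA or IAA19mII replicate 1 or 2 in mock, and 9 without IAA19mII replicate 2 with IAA.

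Against IAA7mII cells, whose plasmid has the same pBeaconRFP name, 738 probesets (4.37%) were called in mock, 530 higher (3.14%) and 208 lower (1.23%) in IAA19mII cells. This contrast shares the IAA19mII arrays with the main one, and IAA7mII against empty vector shares the empty vector arrays, so values are given side by side only. cwINV6 differed from IAA7mII cells by 3.76 ± 0.35 (adjusted p = 4.91e-08), with a mean signal of 199.6 ± 104 in IAA7mII cells (SD, n = 3), and IAA7mII cells differed from empty vector cells by 2.37 ± 0.35. AT5G64110 differed by 4.45 ± 0.35 (adjusted p = 1.88e-09) from IAA7mII cells, which were at -0.32 ± 0.35 against empty vector cells. AT4G18425 differed by -0.02 ± 0.20 between the over-expressors (adjusted p = 0.979) and by 3.76 ± 0.20 between IAA7mII and empty vector cells. GH3.17 was higher in IAA19mII cells than in IAA7mII cells by 1.29 ± 0.21 (adjusted p = 0.000149), and GSO1 by 2.49 ± 0.38 (adjusted p = 8.18e-05). Lower than in both other groups were UGT73C7 (-1.61 ± 0.37 against IAA7mII, adjusted p = 0.0077), AT1G06450 (-1.49 ± 0.34), AT1G17510 (-1.10 ± 0.24), AT4G33660 (-1.48 ± 0.38) and AT3G27340 (-1.10 ± 0.25). GH3.3, IAA30 and CLE44 were not called between the over-expressors. The same held for BGLU46, BGLU41, CYP71B5, CYP71B29, CML23, WRKY6, ATG8E, GTR1 and PGM. BGLU28, UGT71B5, CML43, WRKY47, GSTU27, CHI and ChiC were called higher in IAA19mII than in IAA7mII cells, and BGLU15 and F2KP lower. The median change against IAA7mII cells was -0.10 for beta-glucosidases, -0.07 for cytochrome P450s, 0.26 for glycolysis, -0.10 for respiration and -0.10 for splicing. It was -0.07 over all single genes.

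Of 10 tested markers of other root cell types and green tissue, GSO1 not counted, limma called 0, with 0 at an unadjusted p under 0.05. Among all single genes 12.8% were called, and 10 markers are few. Fewer cells of a type and less RNA per cell cannot be told apart in such sorted bulk samples. Of the root hair markers EXPA7 was the tested one, with 71.8, 40.8 and 203 in IAA19mII cells, against 53.4, 54.7 and 51.1 in empty vector cells; 1 IAA19mII array stood above the rest. scpl48, listed with the root cap markers, was bright in both groups, with 9505, 8688 and 10884 in IAA19mII cells, against 9806, 9708 and 8527 in empty vector cells. RCA, the green tissue marker, had 30.5, 19.6 and 31.7 in IAA19mII cells, against 58.1, 41.3 and 56.6 in empty vector cells, without overlap but not called (adjusted p = 0.344). Summed over the 2 tested cortex markers, signals were 281.0 to 466 in IAA19mII cells and 303 to 383 in empty vector cells. The 2 tested quiescent centre markers summed to 58.5 to 155 in IAA19mII cells and 49.6 to 72.2 in empty vector cells. The part of these markers in the results was not tested. No endodermis marker was matched under the names listed. GSO1 also bears the name SGN3, under which the endodermis list holds it. It is left out of the count above, although it was called higher and is among the 12 largest rises. Of 66 tested plastid-encoded genes limma called 0, with 3 at an unadjusted p under 0.05, and their median change was 0.00, with 0 to 2 called over the other settings.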

How the data were processed

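The deposited values are MAS5 signal intensities, 1 per probeset and array, on a linear scale, for 22746 probesets of the ATH1 array on 18 arrays in 6 groups of 3. MAS5 is named, without a version, in the submitters' processing notes. The 2% trimmed means of the arrays are nearly equal, so the deposited intensities carry a global scaling. Under it, values are relative to the rest of their array. The part of this scaling in the split by direction was not tested.

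From these intensities, log2(signal + 16) was computed, and probesets above the 40th percentile of their array on at least 3 of 18 arrays were kept, 16892 in all. limma 3.58.1 in R 4.3.3 fitted 1 mean per group over all 18 arrays, with an intensity trend and Benjamini-Hochberg adjustment over all 16892, and calls were made at an adjusted p under 0.05. The added 16 understates the change of dim probesets. The script was tested on simulated data in which group means differed at few probesets and arrays had no scaling shifts. That test does not bear on array scaling. P-values measure only the spread between these samples, since nothing in the labels says whether replicates are separate cultures.

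Of the probesets tested, 9509 carry 1 gene in the platform's probe table, 376 several and 7007 none, and none was named from a probeset with several. Over the whole table, 13436 single-gene probesets were matched to the RefSeq gene table by gene ID, 72 by symbol and 5 not. Where a gene has several probesets, the one with the highest mean over all 18 arrays was used.

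The genes named were the 12 largest changes in each direction among called single-gene probesets without overlap between groups, 5 in each direction called the same way against empty vector and IAA7mII cells, and up to 4 called, or 2 uncalled, members of each of 62 gene lists; some uncalled members are given as counts only. A further 13 lists, the early auxin genes that were not called and some genes with a symbol were added after values had been seen. The members and lists were chosen with earlier results of these data known. Of the 62 lists, 16 had no tested member. Other settings changed the added constant, the filter, the scaling, the trend, the weights, the samples in the fit and the threshold, added the replicate number as a block, or left out 1 array at a time. The EXP scanner files were not used here.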

Additional observations from a re-analysis of the deposited data

Results flagged for a closer look

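Of the 15 probesets called by the test of the difference between IAA and mock in limma, the 5 that are named in the results are given here. For the probeset 258399_at, which has no gene in the probe table, the change with IAA minus the change in mock was -13.79 ± 0.39 (adjusted p = 2.77e-19). It is listed at 0 on all 3 IAA19mII arrays with IAA, against 4918, 5699.6 and 5266 on the empty vector arrays with IAA, and a listed 0 enters this difference as the added 16, so its size is no fold change.

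For IAA29, an Aux/IAA gene, the difference was -4.54 ± 0.68 (adjusted p = 0.0022), with mean signals with IAA of 22.8 ± 16.4 in IAA19mII cells and 1062 ± 133 in empty vector cells (SD, n = 3 each). For IAA30 it was -2.84 ± 0.50 (adjusted p = 0.0135), with means with IAA of 177 ± 30.8 in IAA19mII cells and 3657 ± 611 in empty vector cells. SFP1, of the sugar-porter family, differed by 1.38 ± 0.22 (adjusted p = 0.00591), with means with IAA of 3660.2 ± 527 in IAA19mII cells and 602 ± 92.5 in empty vector cells. OSM34, an osmotin-like protein, differed by 1.16 ± 0.23 (adjusted p = 0.0408), with means with IAA of 9666 ± 1687 in IAA19mII cells and 1333 ± 337 in empty vector cells. With no intensity trend IAA30, SFP1 and OSM34 were not called, and with an added 1 IAA29, IAA30 and OSM34 were not. OSM34 was also lost in 10 of 12 cases of leaving out 1 array.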

How the results depend on the processing

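The count of 2445 probesets in mock was 3965 with array weights, 1552 to 2100 when 1 array was left out, and 1734 to 3450 under the other settings, the lowest with a change of at least 2-fold required. It was 2417 with a mean signal of at least 100, a setting chosen after seeing the data. The count against IAA7mII cells was 494 to 603 when 1 array was left out, and that with IAA was 2827 to 3600. The count of 15 for the difference between IAA and mock was 5 with an added 1, 27 with an added 64, 3 with no intensity trend, 25 with array weights and 4 to 15 when 1 array was left out. The cause of these shifts was not tested.

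The 3 same-numbered pairs of IAA19mII and empty vector mock arrays correlated at -0.017, -0.014 and 0.073 in their deviations from the group means, so the numbers were not taken to pair the samples. With the replicate number as a block, the count in mock was 2573, that against IAA7mII cells 794, that with IAA 4031 and that of the difference 21. Of 104 named genes called in mock, 2 lost their call under the block, PRP39-2 and U2AF35B.

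Over the 15 to 17 alternatives that kept each gene in the test, 72 of these 104 genes kept their call in every one, 32 lost it in at least 1, and 0 changed sign. Of the 32, 31 lost it when 1 array was left out and 17 under another setting. Some genes that were not called changed sign. WES1 was at 0.052 and RR22 at 0.23 after median centring. After quantile normalization RR22 was at 0.018, EIN3 at -0.12 and scpl48 at -0.20. When 1 array was left out, GID1B ran from -0.047 to 0.57, scpl48 from -0.038 to 0.12, IAA29 from -0.76 to 0.26 and RR22 from -0.11 to 0.093.

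Low signal limits many falls, since IAA19mII values near 0 take their fitted change from the added constant. With 3 arrays a group, a gene that was not called is not shown to be alike in both.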
